A study of Mus musculus with 16 samples.

Results

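The clade B serpins are the mostly intracellular branch of the serpin family of protease inhibitors, encoded in the mouse by the genes named Serpinb followed by a number. Every protein-coding gene of the deposited count files with such a symbol was taken, which gave 26 of 43432 genes. Of these, 21 had 10 or more reads in 4 or more libraries and are described with their values. The other 5 (Serpinb3d, Serpinb9c, Serpinb9d, Serpinb9f and Serpinb9g) fell below that and are given by their read totals. The rule used the symbol and the read number only, not a difference between groups, but a member can reach the read limit through 1 population alone, so counts below describe these 21. The members lie in 2 clusters of the GRCm38 genome, 11 on chromosome 1 between 106861173 and 107610484 and 15 on chromosome 13 between 32842092 and 34002794.

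The libraries came from sorted epithelial cells of the mouse thymus, with 4 biological replicates of each of 4 populations and 12 thymi pooled per replicate. All mice were C57BL6 animals of mixed sex, 5 to 6 weeks old, that carried both the tamoxifen-inducible Aire-CreERT2 allele and the Ai14 red fluorescent (RFP) reporter, and all received 2 mg tamoxifen 7 days before the thymi were taken. From live cells that lacked CD45 and carried EPCAM, sorting on RFP and MHC class II gave RFP+ MHCIIlo, RFP- MHCIIlo, RFP+ MHCIIhi and RFP- MHCIIhi cells. RFP marks cells whose Aire promoter was active when tamoxifen was given, together with their descendants. A cell with Aire activity at another time, or in which Cre failed to recombine the reporter, is RFP-. So the RFP- populations are not free of cells with an Aire history, and no population came from mice without the alleles or without tamoxifen. The RFP+ MHCIIlo libraries were made from 19400 to 20500 cells each, and those of the other populations from 80500 to 164000.

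Read totals were 7.93 to 19.46 M per library. Values are counts per M (CPM), scaled between libraries by the trimmed mean of M values (TMM), and a difference was called where edgeR's quasi-likelihood test over 19617 genes gave a Benjamini-Hochberg adjusted p under 0.05. The p-values measure the spread between pools of thymi. The gates were checked on Aire and H2-Aa, an MHC class II gene. Aire ranged over 13.9 to 68.0 CPM in RFP+ MHCIIlo, 16.3 to 69.0 in RFP- MHCIIlo, 543 to 622 in RFP+ MHCIIhi and 916 to 1040 in RFP- MHCIIhi cells, and H2-Aa was at 700 to 1120, 1010 to 1700, 4980 to 5770 and 4570 to 4900 CPM in the same populations. RFP+ MHCIIlo replicate 1 had the lowest Aire level of all libraries. RFP+ MHCIIlo replicate 4 stood apart from its group over all genes, with a chi-square per degree of freedom of 24.7 to 36.8 against the other three, which gave 4.66 to 10.8 among themselves. Mitochondrial ribosomal RNA took 38.53% of its reads, against 31.4% to 33.31% in the other three. That share was 39.16% to 45.89% in RFP- MHCIIlo libraries, above all others, 29.29% to 32.65% in RFP+ MHCIIhi and 32.34% to 35.76% in RFP- MHCIIhi libraries. As these are bulk samples, fewer cells of a type that makes a transcript and less of that transcript per cell cannot be told apart in any difference given here.

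A serpin presents an exposed loop as bait. When a protease cuts the loop, the serpin changes shape, traps the protease in a covalent complex and is used up. Clade B members lack a classical signal peptide and act mainly in the cytosol and nucleus, where they are known for guarding cells against proteases that leak from granules and lysosomes. Several are known from stratified epithelium such as epidermis, and the thymic medulla also holds cells that resemble cornified keratinocytes.

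Serpinb1a, a neutrophil elastase inhibitor, had the highest level per exon length of the 21 members in each of the 4 populations. Its mean was 239 ± 39.0 CPM per kb of exon in RFP+ MHCIIlo cells, 166 ± 15.4 in RFP- MHCIIlo cells, 268 ± 15.7 in RFP+ MHCIIhi cells and 89.1 ± 7.56 in RFP- MHCIIhi cells (SD, n = 4 libraries). That was 40.2%, 46.7%, 37.7% and 30.4% of the members' sum on this scale in the same order. Serpinb6a, known as a cathepsin G inhibitor, came second in both MHCIIlo populations with 127 CPM per kb in RFP+ MHCIIlo and 92.2 in RFP- MHCIIlo cells. Second place in RFP+ MHCIIhi cells went to Serpinb2 with 112 CPM per kb, close to Serpinb9 with 104, and in RFP- MHCIIhi cells to Serpinb12 with 56.3. Serpinb12 was 10th in RFP- MHCIIlo cells. The 26 members together summed to 1570 to 1940 CPM in RFP+ MHCIIlo libraries, against 1030 to 1210 in RFP- MHCIIlo libraries, and to 1880 to 2000 in RFP+ MHCIIhi libraries, against 801 to 874 in RFP- MHCIIhi libraries, so the summed level was higher in RFP+ cells of both gates with no overlap of libraries.

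**Figure D1:**
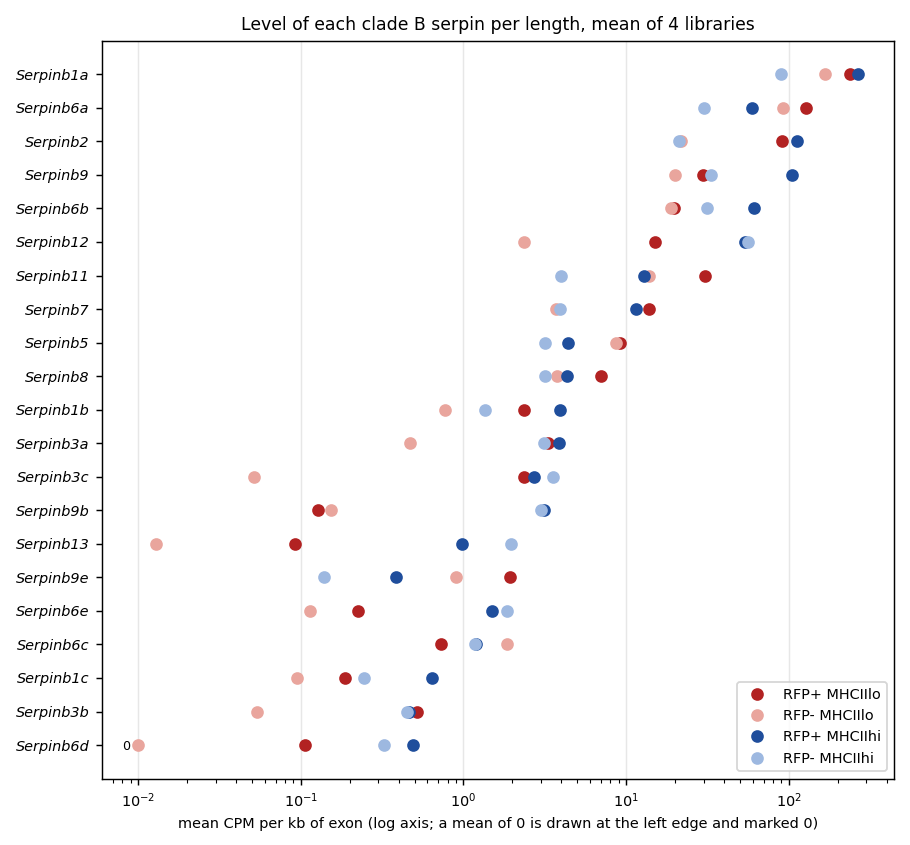
Mean level of each of the 21 clade B serpins in CPM per kb of exon (log axis), 1 point per population (mean of 4 libraries), members ordered by their highest mean. Serpinb1a tops every population, and Serpinb12 spans the widest range among the more abundant members, with its RFP- MHCIIlo point at 2.35 CPM per kb.

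Between RFP+ and RFP- cells of the MHCIIlo gate, 14 of the 21 members were called higher and 1 lower. Of all 19617 genes tested, 28.9% were called higher and 22.7% lower in this comparison, 51.6% in either direction, so a call by itself is common here. In the MHCIIhi gate 12 members were called higher and 1 lower, where 23.8% of all genes were called higher and 21.2% lower, 45% in either direction. The median log2 difference over the 21 members was 1.10 in MHCIIlo and 0.63 in MHCIIhi cells, beside 0.07 and -0.02 over all genes tested. The 2 comparisons share no library. By call, 9 members were higher in RFP+ cells of both gates (Serpinb11, Serpinb7, Serpinb2, Serpinb8, Serpinb1a, Serpinb9, Serpinb1b, Serpinb9e and Serpinb6a). Another 5 were called higher in MHCIIlo and not called in MHCIIhi (Serpinb12, Serpinb3a, Serpinb3b, Serpinb3c and Serpinb6d), and 3 were called higher in MHCIIhi and not called in MHCIIlo (Serpinb5, Serpinb1c and Serpinb6b). Serpinb6c was called lower in MHCIIlo, Serpinb13 lower in MHCIIhi, and Serpinb9b and Serpinb6e were called in neither. The share of all genes with each pair of calls is not given here. Whether these joint counts are unusual is therefore not known. Whether the difference itself changed between gates was tested for each member and is given with it.

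**Figure D2:**
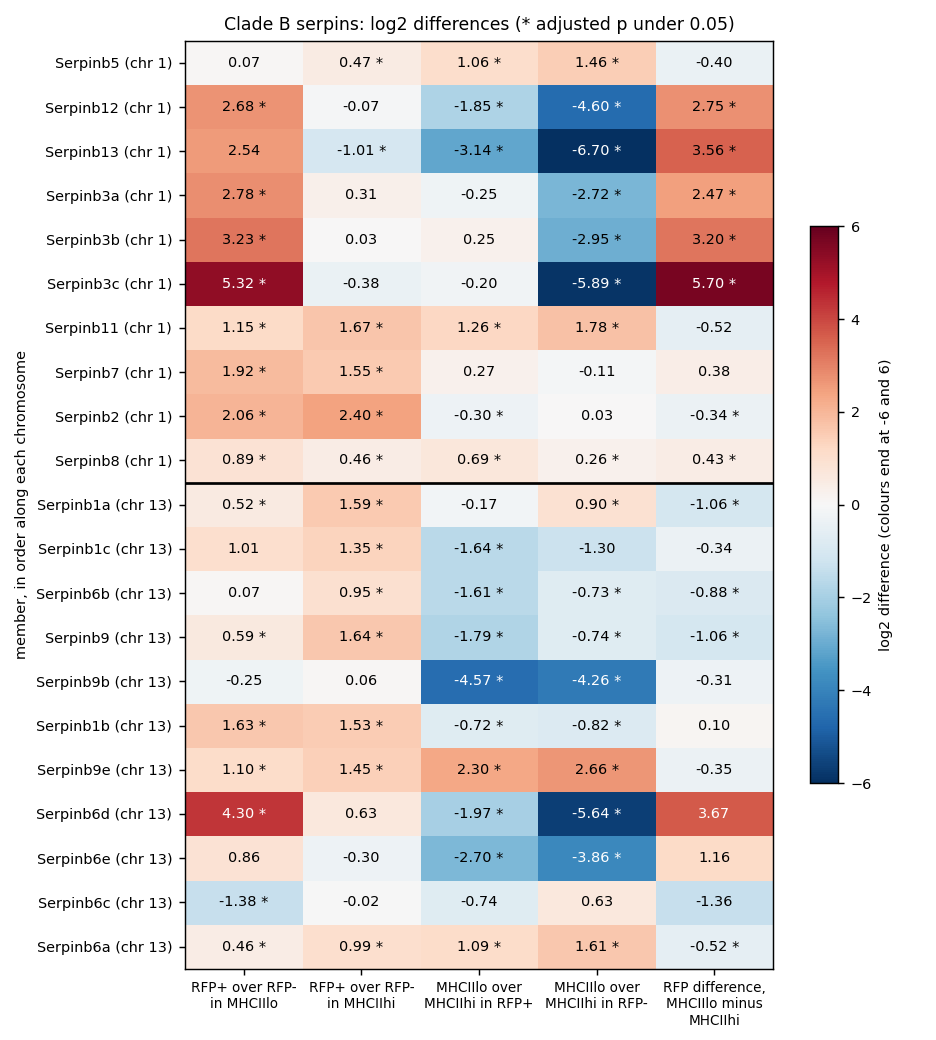
Log2 difference of each of the 21 members in the 2 RFP comparisons, the 2 gate comparisons and the difference between the RFP differences, with an asterisk where the adjusted p was under 0.05. Serpinb12, Serpinb13 and Serpinb3a to Serpinb3c, neighbours on chromosome 1, stand out in the last column with values from 2.47 to 5.70. Serpinb6d, on chromosome 13, is at 3.67 in that column and was not called (adjusted p = 0.094). The fitted values of Serpinb13 and Serpinb6d rest on populations with 1 and 0 reads and are no measure of size.

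The promoters of 5 members on chromosome 1 are printed because these genes carry the 2 patterns described next, higher in RFP+ cells of both gates (Serpinb2, Serpinb7 and Serpinb11) and higher in RFP+ cells of the MHCIIlo gate (Serpinb12 and Serpinb3c). Each is 300 bases of the GRCm38.p6 build from RefSeq, from 250 bases before to 50 after the annotated start, on the gene's own strand. The windows are chr1:107511173-107511472 on the plus strand for Serpinb2, chr1:107422439-107422738 on the plus strand for Serpinb7, chr1:107362064-107362363 on the plus strand for Serpinb11, chr1:106934199-106934498 on the plus strand for Serpinb12 and chr1:107278322-107278621 on the minus strand for Serpinb3c. Capitals mark matches to a loose AP-1 pattern, TGANTCA with any base in the middle, or to the TATA motif TATAAA, both searched on both strands.
Serpinb2: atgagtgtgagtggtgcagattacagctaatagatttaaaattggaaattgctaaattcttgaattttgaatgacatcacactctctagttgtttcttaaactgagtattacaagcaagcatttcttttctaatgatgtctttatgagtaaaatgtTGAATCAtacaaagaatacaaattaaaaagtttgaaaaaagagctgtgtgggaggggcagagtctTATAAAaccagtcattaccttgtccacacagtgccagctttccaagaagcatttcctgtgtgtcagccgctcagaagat
Serpinb7: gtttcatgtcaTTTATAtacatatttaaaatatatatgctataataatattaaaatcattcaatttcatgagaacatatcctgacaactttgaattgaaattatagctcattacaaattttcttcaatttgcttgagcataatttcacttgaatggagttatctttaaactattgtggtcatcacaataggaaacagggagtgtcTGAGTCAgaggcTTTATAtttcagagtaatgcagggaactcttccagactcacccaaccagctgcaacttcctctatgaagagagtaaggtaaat
Serpinb11: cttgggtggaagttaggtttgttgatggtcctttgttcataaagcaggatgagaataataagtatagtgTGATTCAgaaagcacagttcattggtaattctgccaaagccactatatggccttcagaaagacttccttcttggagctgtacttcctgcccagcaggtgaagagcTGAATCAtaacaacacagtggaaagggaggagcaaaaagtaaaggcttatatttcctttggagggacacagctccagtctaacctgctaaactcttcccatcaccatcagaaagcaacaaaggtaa
Serpinb12: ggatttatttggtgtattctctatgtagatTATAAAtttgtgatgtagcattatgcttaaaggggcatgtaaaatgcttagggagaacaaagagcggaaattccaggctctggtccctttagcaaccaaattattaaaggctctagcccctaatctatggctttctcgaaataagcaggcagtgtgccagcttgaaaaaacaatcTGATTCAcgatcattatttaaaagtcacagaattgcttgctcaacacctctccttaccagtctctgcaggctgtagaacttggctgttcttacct
Serpinb3c: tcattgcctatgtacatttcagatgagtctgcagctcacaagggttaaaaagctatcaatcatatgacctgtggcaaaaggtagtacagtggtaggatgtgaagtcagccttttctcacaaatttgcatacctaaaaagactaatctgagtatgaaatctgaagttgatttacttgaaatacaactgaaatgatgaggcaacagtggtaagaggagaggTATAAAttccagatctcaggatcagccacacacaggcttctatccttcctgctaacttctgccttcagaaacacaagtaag
RefSeq held a promoter for 19 of the 21 members (not Serpinb13 or Serpinb1a). The AP-1 letters were present in 6 of the 9 members with a promoter on chromosome 1 (Serpinb5, Serpinb12, Serpinb11, Serpinb7, Serpinb2 and Serpinb8) and in 0 of the 10 on chromosome 13, and in 7.81% of all 32851 promoters of this length. All these counts allow any middle base. Serpinb7 and Serpinb8 held TGAGTCA, while Serpinb5, Serpinb12, Serpinb11 and Serpinb2 held only TGAATCA or TGATTCA. A pattern limited to G or C in the middle was not counted over all promoters. The TATA letters were present in 6 of the 9 on chromosome 1 (Serpinb12, Serpinb3a, Serpinb3b, Serpinb3c, Serpinb7 and Serpinb2) and in 2 of the 10 on chromosome 13 (Serpinb1c and Serpinb6c), and in 13.6% of all promoters. Position and strand were not weighed in these counts. The Serpinb12 matches lay far before the start, at positions 31 and 50 of its 2 windows. Those of Serpinb7 and Serpinb6c were on the other strand (TTTATA), the latter past the start at position 254. For NF-kB only a narrow pattern of letters was searched, which was present in none of the 19 and in 1.63% of all promoters. Other forms of the NF-kB motif were not searched, so the result does not show that these promoters lack them. A member with several annotated starts counts as holding a motif where any of its windows does, and RefSeq starts can differ from those of the annotation used for counting. A match of letters does not show that a factor binds.

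Serpinb2, plasminogen activator inhibitor type 2, had the smallest standard errors of the family and was several-fold higher in RFP+ cells of both gates. In the MHCIIlo gate it was at 186, 218, 216 and 231 CPM in RFP+ cells, against 54.3, 50.6, 45.5 and 53.7 CPM in RFP- cells. In the MHCIIhi gate it was at 252, 269, 265 and 266 CPM in RFP+ cells, against 47.4, 51.5, 51.3 and 49.4 CPM in RFP- cells. The RFP- libraries of both gates thus sat at nearly the same level, and all 8 RFP+ libraries lay far above them. The log2 difference was 2.06 ± 0.08 in MHCIIlo cells (SE, adjusted p = 2.3e-15, 4.18-fold) and 2.40 ± 0.08 in MHCIIhi cells (adjusted p = 2.2e-16, 5.28-fold). MHCIIlo minus MHCIIhi, the change was -0.34 ± 0.11 (adjusted p = 0.021). Between gates Serpinb2 was lower in RFP+ MHCIIlo than in RFP+ MHCIIhi cells (log2 -0.30, adjusted p = 0.0016), and the RFP- populations differed by 0.03 (adjusted p = 0.73). Serpinb2 shares 291 exon bases with Serpinb10, which was at a mean of 1.55 CPM in RFP+ MHCIIlo cells, far below it.

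Serpinb7, called megsin, moved in the same direction. It was at 22.1, 25.8, 27.1 and 33.4 CPM in RFP+ MHCIIlo cells, against 9.04, 7.47, 6.14 and 6.19 CPM in RFP- MHCIIlo cells. RFP+ MHCIIhi cells had 21.0, 24.0, 22.6 and 22.7 CPM, against 8.40, 7.49, 7.98 and 7.01 CPM in RFP- MHCIIhi cells. The level went with RFP, and the 2 gates overlapped within each RFP class. The log2 differences were 1.92 ± 0.14 in MHCIIlo (adjusted p = 6.5e-11) and 1.55 ± 0.13 in MHCIIhi cells (adjusted p = 1.4e-09), and their difference of 0.38 ± 0.19 was not called (adjusted p = 0.14). Between RFP+ MHCIIlo and RFP+ MHCIIhi cells Serpinb7 was not called (log2 0.27, adjusted p = 0.075), but without RFP+ MHCIIlo replicate 1 it was (0.35, adjusted p = 0.022), as it was with limma-voom (0.26, adjusted p = 0.044).

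Serpinb11, called epipin, differed by both RFP and gate. RFP+ MHCIIlo cells had 62.9, 61.1, 63.6 and 78.4 CPM, against 40.3, 30.3, 22.2 and 27.9 CPM in RFP- MHCIIlo cells. With MHCIIhi, RFP+ cells were at 36.7, 24.1, 25.9 and 24.7 CPM, against 9.51, 9.23, 7.98 and 8.10 CPM in RFP- MHCIIhi cells. RFP+ MHCIIlo cells were highest and RFP- MHCIIhi cells lowest with no overlap, while RFP- MHCIIlo and RFP+ MHCIIhi libraries overlapped. The RFP difference was log2 1.15 ± 0.15 in MHCIIlo (adjusted p = 4.8e-07) and 1.67 ± 0.16 in MHCIIhi cells (adjusted p = 6.5e-09). The MHCIIlo gate was above the MHCIIhi gate by log2 1.26 in RFP+ and 1.78 in RFP- cells. The change of the RFP difference between gates, -0.52 ± 0.21, had an adjusted p of 0.063 and was called without RFP- MHCIIlo replicate 3 (-0.65, 0.016), RFP+ MHCIIhi replicate 2 (-0.62, 0.043) or RFP+ MHCIIlo replicate 4 (-0.61, 0.029). That change was also called with no filter on low counts (-0.55, 0.0074), a replicate block (-0.50, 0.035) and mitochondrial and ribosomal RNA genes left out (-0.59, 0.039).

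Serpinb8, whose human counterpart inhibits furin, differed by less than 2-fold in each of the 4 pair comparisons. It was at 29.6 to 35.5 CPM in RFP+ MHCIIlo cells, against 15.8 to 19.3 CPM in RFP- MHCIIlo cells, and at 17.3 to 22.8 CPM in RFP+ MHCIIhi cells, against 14.4 to 15.6 CPM in RFP- MHCIIhi cells. By RFP, the difference was log2 0.89 ± 0.11 in MHCIIlo (adjusted p = 1.8e-07) and 0.46 ± 0.10 in MHCIIhi cells (adjusted p = 0.00084). Among RFP+ cells the MHCIIlo gate was higher by 0.69 ± 0.10 (adjusted p = 4.3e-06). The change between gates, 0.43 ± 0.15 (adjusted p = 0.026), lost its call without any of 7 single libraries, with values of 0.35 to 0.41 and adjusted p of 0.051 to 0.078: RFP- MHCIIhi replicate 1, 2 or 3, RFP- MHCIIlo replicate 4, RFP+ MHCIIhi replicate 4, or RFP+ MHCIIlo replicate 2 or 3. Between RFP- MHCIIlo and RFP- MHCIIhi cells the difference of 0.26 (adjusted p = 0.034) lost its call without RFP- MHCIIhi replicate 3 or 4 or RFP- MHCIIlo replicate 1, 2 or 3, with values of 0.22 to 0.26 and adjusted p of 0.056 to 0.11. It also lost it with RLE size factors (0.21, adjusted p = 0.091), with no filter on low counts (0.23, adjusted p = 0.15) and with DESeq2 (0.20, adjusted p = 0.13). The change between gates likewise lost its call with no filter (0.40, adjusted p = 0.10) and without mitochondrial and ribosomal RNA genes (0.36, adjusted p = 0.063).

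Serpinb5, known as maspin and without known protease inhibition, followed the gate more than RFP. RFP+ MHCIIlo cells had 29.6, 26.2, 23.6 and 21.6 CPM, against 21.4, 24.8, 21.3 and 28.4 CPM in RFP- MHCIIlo cells, which overlap. Levels in the MHCIIhi gate were, in RFP+ cells, 13.9, 12.0, 12.4 and 10.0 CPM, against 7.00, 8.13, 9.36 and 10.4 CPM in RFP- MHCIIhi cells, where 1 library of each class crosses. All MHCIIlo libraries lay above all MHCIIhi libraries, by log2 1.06 ± 0.14 in RFP+ cells (adjusted p = 8.1e-07) and 1.46 ± 0.14 in RFP- cells (adjusted p = 3.3e-09). The RFP difference was 0.07 in MHCIIlo (adjusted p = 0.69) and 0.47 ± 0.14 in MHCIIhi cells (adjusted p = 0.0093), and the MHCIIhi call was lost without RFP- MHCIIhi replicate 1 (0.38, adjusted p = 0.054).

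Serpinb12, an inhibitor of trypsin-like proteases known from epithelia, showed a different pattern, with RFP- MHCIIlo cells far below the rest. RFP+ MHCIIlo cells had 32.3, 39.6, 40.2 and 37.3 CPM, against 7.76, 7.04, 4.86 and 3.79 CPM in RFP- MHCIIlo cells. In the MHCIIhi gate RFP+ cells held 147, 130, 131 and 129 CPM, against 137, 149, 150 and 127 CPM in RFP- MHCIIhi cells. The MHCIIhi libraries of both RFP classes overlapped, at several times the RFP+ MHCIIlo level, and the RFP- MHCIIlo libraries were lowest. By RFP, the difference was log2 2.68 ± 0.14 in MHCIIlo cells (adjusted p = 2.8e-13, 6.43-fold) and -0.07 ± 0.11 in MHCIIhi cells (adjusted p = 0.65), and the 2 differed by 2.75 ± 0.18 (adjusted p = 8.5e-11). MHCIIlo cells were below MHCIIhi cells, at log2 -1.85 ± 0.12 among RFP+ (adjusted p = 6.9e-12) and -4.60 ± 0.14 among RFP- cells (adjusted p = 2.2e-17, 24.2-fold lower). RFP- MHCIIlo libraries, the lowest in Serpinb12, were also the highest in mitochondrial ribosomal RNA (39.16% to 45.89% of reads, against at most 38.53% in any other library). With mitochondrial and ribosomal RNA genes left out of the counts, the RFP difference in MHCIIlo cells was 2.62 and its change between gates 2.68 for Serpinb12.

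The squamous cell carcinoma antigen homologues Serpinb3a, Serpinb3b and Serpinb3c, whose human counterparts inhibit lysosomal cysteine cathepsins, cathepsin G and chymase, were likewise lowest in RFP- MHCIIlo cells, the population with the most mitochondrial ribosomal RNA. Serpinb3c was at 3.02, 4.63, 3.32 and 4.73 CPM in RFP+ MHCIIlo cells, against 0, 0.170, 0.0853 and 0.0860 CPM in RFP- MHCIIlo cells, which held 4 reads of it in all. RFP+ MHCIIhi cells had 5.61, 3.50, 4.72 and 4.28 CPM of Serpinb3c, against 5.71, 6.65, 5.91 and 5.23 CPM in RFP- MHCIIhi cells. So the RFP- MHCIIlo libraries were near 0, far below the other populations. Among those, RFP+ MHCIIhi libraries overlapped both others, while all RFP+ MHCIIlo libraries lay below all RFP- MHCIIhi libraries. The RFP difference was log2 5.32 ± 0.41 in MHCIIlo (adjusted p = 1.9e-10) and -0.38 ± 0.20 in MHCIIhi cells (adjusted p = 0.13), which differed by 5.70 ± 0.48 (adjusted p = 3.2e-09). With 4 reads in the lower population, the size of the first difference is known only loosely. The MHCIIhi difference was called in the fit of only the 2 groups compared (-0.37, adjusted p = 0.047). RFP- MHCIIlo cells were also below RFP- MHCIIhi cells (log2 -5.89 ± 0.39, adjusted p = 3.5e-12), while RFP+ cells of the 2 gates were not told apart (-0.20, adjusted p = 0.46).

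Serpinb3a had 4.75, 7.19, 6.96 and 2.57 CPM in RFP+ MHCIIlo cells, against 0.850, 1.19, 0.938 and 0.0860 CPM in RFP- MHCIIlo cells. It had 6.86, 5.66, 6.37 and 6.39 CPM in RFP+ MHCIIhi cells, against 4.27, 5.81, 5.14 and 5.23 CPM in RFP- MHCIIhi cells. Again the RFP- MHCIIlo libraries stood alone at the bottom. By RFP, the difference was log2 2.78 ± 0.37 in MHCIIlo (adjusted p = 1.2e-06) and 0.31 ± 0.27 in MHCIIhi cells (adjusted p = 0.37), which differed by 2.47 ± 0.47 (adjusted p = 0.00023). MHCIIlo over MHCIIhi was log2 -0.25 among RFP+ (adjusted p = 0.45) and -2.72 ± 0.36 among RFP- cells (adjusted p = 5.5e-07).

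Serpinb3b had 0.324, 0.731, 0.104 and 2.32 CPM in RFP+ MHCIIlo cells, against 0.106, 0, 0.171 and 0.0860 CPM in RFP- MHCIIlo cells. It had 0.468, 0.467, 0.768 and 1.40 CPM in RFP+ MHCIIhi cells, against 0.742, 0.710, 0.767 and 0.804 CPM in RFP- MHCIIhi cells. RFP+ MHCIIlo replicate 4 was the highest library and the 2 MHCIIlo populations overlapped. The RFP difference in MHCIIlo, log2 3.23 ± 0.84 (adjusted p = 0.0027), was 1.94 and no longer called without that library (adjusted p = 0.064), and its change between gates, 3.20 (adjusted p = 0.019), was then 1.91 (adjusted p = 0.13). That change also lost its call without RFP- MHCIIlo replicate 2 (2.78, adjusted p = 0.050) and with limma-voom (2.49, adjusted p = 0.057). MHCIIlo over MHCIIhi was log2 0.25 among RFP+ (adjusted p = 0.73) and -2.95 ± 0.83 among RFP- cells (adjusted p = 0.0033) for this gene. Of the 50-base words in the transcripts of Serpinb3a, Serpinb3b and Serpinb3c, 15.0%, 14.7% and 12.2% also occur in another gene, mostly each other or neighbouring predicted genes, so reads can be shared among them.

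Serpinb13, known in human as headpin and as an inhibitor of cathepsins L and K, was a gene of the MHCIIhi gate. RFP+ MHCIIlo cells had 0, 0.122, 0 and 0.497 CPM, against 0, 0, 0 and 0.0860 CPM in RFP- MHCIIlo cells, which is 7 reads against 1. With MHCIIhi, RFP+ cells were at 1.95, 0.933, 2.03 and 1.61 CPM, against 3.34, 3.55, 3.30 and 2.99 CPM in RFP- MHCIIhi cells, with no overlap. Among MHCIIlo cells the ratio of RFP+ to RFP- levels was 7.97 with an exact counting interval (95%) of 1.02 to 359, and the difference was not called (adjusted p = 0.083). Leaving out RFP- MHCIIlo replicate 4 brought a call (adjusted p = 0.044), as did leaving out replicate 1 (0.038) or 3 (0.041) of RFP+ MHCIIlo. In MHCIIhi cells Serpinb13 was lower in RFP+ cells, at log2 -1.01 ± 0.35 (adjusted p = 0.023). That call was lost without RFP- MHCIIhi replicate 1 or 2 or RFP+ MHCIIhi replicate 2 or 4, with values of -0.82 to -1.01 and adjusted p of 0.050 to 0.095.

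The MHCIIlo level of Serpinb13 was lower than the MHCIIhi level among RFP+ cells (log2 -3.14 ± 0.57, adjusted p = 5.7e-05) and among RFP- cells (adjusted p = 1.4e-08). Without RFP+ MHCIIlo replicate 4 the first of these was -5.14. The level in RFP- MHCIIhi cells was 147 times that in RFP- MHCIIlo cells, with a counting interval of 26.0 to 5810. The change of the RFP difference between gates was called (adjusted p = 0.032) but was not when RFP+ MHCIIlo replicate 4 (1.56, adjusted p = 0.56) or any of RFP- MHCIIlo replicates 1 to 3 was left out (3.22 to 3.31, adjusted p of 0.060 to 0.070), and was 5.33 without RFP- MHCIIlo replicate 4 (adjusted p = 0.021). With limma-voom it was 2.20 and not called (adjusted p = 0.068).

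On chromosome 13, the leukocyte elastase inhibitor gene Serpinb1a, which protects cells from neutrophil elastase, cathepsin G and proteinase 3, was higher in RFP+ cells of both gates. It was at 429, 588, 542 and 640 CPM in RFP+ MHCIIlo cells, against 333, 393, 417 and 387 CPM in RFP- MHCIIlo cells. Levels in the MHCIIhi gate were, in RFP+ cells, 564, 626, 646 and 632 CPM, against 205, 224, 182 and 210 CPM in RFP- MHCIIhi cells. RFP+ libraries of the 2 gates overlapped, and RFP- MHCIIhi cells were lowest. The RFP difference was log2 0.52 ± 0.10 in MHCIIlo (adjusted p = 0.00016, 1.44-fold) and 1.59 ± 0.10 in MHCIIhi cells (adjusted p = 1.6e-11, 3.0-fold), a change between gates of -1.06 ± 0.15 (adjusted p = 4.3e-06). RFP- MHCIIlo cells were above RFP- MHCIIhi cells by log2 0.90 ± 0.10 (adjusted p = 5.7e-08). The comparison of RFP+ MHCIIlo with RFP+ MHCIIhi cells was not called (log2 -0.17, adjusted p = 0.17), but was without RFP+ MHCIIlo replicate 4 (-0.25, adjusted p = 0.038) and with no filter on low counts (-0.23, adjusted p = 0.037).

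Its paralogues Serpinb1b and Serpinb1c were far less abundant. Serpinb1b had 2.48, 4.27, 4.67 and 6.72 CPM in RFP+ MHCIIlo cells, against 1.38, 1.87, 1.28 and 1.38 CPM in RFP- MHCIIlo cells. It had 8.11, 7.64, 7.74 and 6.88 CPM in RFP+ MHCIIhi cells, against 2.97, 3.42, 2.30 and 1.78 CPM in RFP- MHCIIhi cells. RFP+ libraries were above RFP- libraries in each gate, by log2 1.63 ± 0.28 in MHCIIlo (adjusted p = 3.9e-05) and 1.53 ± 0.23 in MHCIIhi cells (adjusted p = 9.7e-06). MHCIIlo cells were lower than MHCIIhi cells, at log2 -0.72 among RFP+ (adjusted p = 0.011) and -0.82 among RFP- cells (adjusted p = 0.014), the second of which was -0.68 without RFP- MHCIIhi replicate 2 (adjusted p = 0.052).

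Serpinb1c had 0.216, 0.244, 0.104 and 0.663 CPM in RFP+ MHCIIlo cells, against 0.106, 0.0848, 0.341 and 0.0860 CPM in RFP- MHCIIlo cells. It had 1.32, 0.875, 1.04 and 0.912 CPM in RFP+ MHCIIhi cells, against 0.325, 0.387, 0.307 and 0.574 CPM in RFP- MHCIIhi cells. It stood highest in RFP+ MHCIIhi cells, above RFP- MHCIIhi cells by log2 1.35 ± 0.43 (adjusted p = 0.013, and 0.050 with no filter on low counts), and the MHCIIlo populations overlapped. RFP+ MHCIIlo cells were below RFP+ MHCIIhi cells, at log2 -1.64 (adjusted p = 0.0065), which was -2.42 without RFP+ MHCIIlo replicate 4. Between RFP- MHCIIlo and RFP- MHCIIhi cells the difference of -1.30 (adjusted p = 0.060) was called without RFP- MHCIIlo replicate 3 (-2.02, adjusted p = 0.018) and without RFP+ MHCIIlo replicate 4 (-1.30, adjusted p = 0.039).

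Serpinb6a was the most abundant member in CPM in the MHCIIlo gate. It was at 650, 761, 746 and 597 CPM in RFP+ MHCIIlo cells, against 447, 559, 520 and 469 CPM in RFP- MHCIIlo cells. In the MHCIIhi gate RFP+ cells held 295, 348, 328 and 323 CPM, against 169, 165, 143 and 178 CPM in RFP- MHCIIhi cells. The 4 populations were separate, falling in that order. By RFP, the difference was log2 0.46 ± 0.09 in MHCIIlo (adjusted p = 0.00022) and 0.99 ± 0.10 in MHCIIhi cells (adjusted p = 9.4e-09), a change of -0.52 ± 0.13 (adjusted p = 0.0040). MHCIIlo cells were above MHCIIhi cells by log2 1.09 ± 0.09 among RFP+ (adjusted p = 1.3e-09) and 1.61 ± 0.10 among RFP- cells (adjusted p = 7.3e-13). Of its 5409 exon bases, 1587 also belong to Nqo2, Ripk1 or an antisense gene, 1110046J04Rik, on the other strand, and the strand setting of the counting is not given in the sources used here. Nqo2 was itself higher in RFP+ cells, by 0.47 in MHCIIlo and 0.54 in MHCIIhi, and its part in the Serpinb6a values was not tested.

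Serpinb6b, a paralogue, went the other way by gate. It was at 34.6, 44.5, 45.1 and 55.4 CPM in RFP+ MHCIIlo cells, against 37.4, 36.0, 58.4 and 39.4 CPM in RFP- MHCIIlo cells. RFP+ MHCIIhi cells had 134, 134, 136 and 147 CPM, against 71.6, 74.4, 76.0 and 62.8 CPM in RFP- MHCIIhi cells. The MHCIIlo populations overlapped and lay below both MHCIIhi populations. The RFP difference was log2 0.07 ± 0.13 in MHCIIlo (adjusted p = 0.68) and 0.95 ± 0.13 in MHCIIhi cells (adjusted p = 1.3e-06), and the change between gates was -0.88 ± 0.18 (adjusted p = 0.00066). MHCIIlo cells were below MHCIIhi cells, at log2 -1.61 among RFP+ (adjusted p = 4.7e-10) and -0.73 among RFP- cells (adjusted p = 3.1e-05).

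The remaining Serpinb6 paralogues were at low levels. Serpinb6c was at 0.972, 1.46, 1.14 and 0.497 CPM in RFP+ MHCIIlo cells, against 1.17, 2.88, 1.71 and 4.47 CPM in RFP- MHCIIlo cells. It was at 1.64, 2.04, 1.26 and 1.68 CPM in RFP+ MHCIIhi cells, against 2.23, 1.48, 1.15 and 1.72 CPM in RFP- MHCIIhi cells. It was the 1 member called lower in RFP+ MHCIIlo cells (log2 -1.38 ± 0.40, adjusted p = 0.0063), although libraries overlapped, and leaving out RFP- MHCIIlo replicate 4 ended the call (-0.97, adjusted p = 0.051), as did leaving out RFP+ MHCIIlo replicates 1 and 4 (adjusted p = 0.080). The change between gates of -1.36 (adjusted p = 0.055) was called when RFP- MHCIIhi replicate 1, either of RFP- MHCIIlo replicates 1 and 3, or replicate 2 of RFP+ MHCIIlo was left out (-1.52 to -1.61, adjusted p of 0.021 to 0.039). It was also called with no filter on low counts (-1.39, adjusted p = 0.040) and without mitochondrial and ribosomal RNA genes (-1.43, adjusted p = 0.043). The RFP- MHCIIlo against RFP- MHCIIhi difference of 0.63 (adjusted p = 0.12) was 0.85 without RFP- MHCIIlo replicate 1 (adjusted p = 0.035).

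Serpinb6d was at 0, 0, 0.208 and 0.415 CPM in RFP+ MHCIIlo cells, against 0 CPM in all 4 RFP- MHCIIlo libraries. It was at 0.779, 0.992, 0.329 and 0.772 CPM in RFP+ MHCIIhi cells, against 0.278, 0.387, 0.767 and 0.459 CPM in RFP- MHCIIhi cells. With the 0 reads of RFP- MHCIIlo cells set to a floor of 3 reads over the group, the level in RFP+ MHCIIlo cells, from 7 reads, was 2.66 times that floor. The level in RFP- MHCIIhi cells, from 30 reads, was 6.6 times it. The reads of the higher population were taken as exact and the spread between libraries was left out, so neither ratio is a strict lower bound. The RFP difference in MHCIIlo cells was called (adjusted p = 0.027) but not when replicate 4 of RFP+ MHCIIlo (0.15) or replicate 3 of RFP- MHCIIlo (0.050) was left out, nor with limma-voom (0.11) or without RFP+ MHCIIlo replicates 1 and 4 (0.10). RFP+ MHCIIlo cells were below RFP+ MHCIIhi cells, at log2 -1.97 (adjusted p = 0.020), which was -3.12 without RFP+ MHCIIlo replicate 4. That call was lost without RFP+ MHCIIhi replicate 2 (-1.79, adjusted p = 0.055) or RFP+ MHCIIlo replicate 1 (-1.60, adjusted p = 0.054).

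Serpinb6e was at 0.324, 0.244, 0.519 and 0.249 CPM in RFP+ MHCIIlo cells, against 0, 0, 0.682 and 0 CPM in RFP- MHCIIlo cells, where all 8 reads lay in replicate 3. It was at 2.03, 1.93, 2.14 and 2.81 CPM in RFP+ MHCIIhi cells, against 2.37, 3.03, 3.22 and 2.35 CPM in RFP- MHCIIhi cells. All MHCIIhi libraries lay above all MHCIIlo libraries (log2 -2.70 ± 0.53 for MHCIIlo over MHCIIhi among RFP+, adjusted p = 0.00016, and -3.86 ± 0.57 among RFP- cells, adjusted p = 2.3e-06). The RFP difference in MHCIIlo was 0.86 (adjusted p = 0.39) with all libraries. It was called without RFP- MHCIIlo replicate 3 (adjusted p = 0.0010), as was its change between gates (adjusted p = 0.0014), and the second gate difference was then -8.20, against a group left with 0 reads, which is no measure of size. With limma-voom and all libraries the RFP difference in MHCIIlo was also called (2.01, adjusted p = 0.036), as was its change between gates (2.29, adjusted p = 0.034).

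Serpinb9, the inhibitor of granzyme B that protects cells from cytotoxic granules, was highest in RFP+ MHCIIhi cells. It was at 74.8, 118, 100 and 125 CPM in RFP+ MHCIIlo cells, against 60.8, 71.3, 75.7 and 69.8 CPM in RFP- MHCIIlo cells, overlapping in 1 library. With MHCIIhi, RFP+ cells were at 350, 370, 334 and 392 CPM, against 102, 132, 126 and 103 CPM in RFP- MHCIIhi cells. All RFP+ MHCIIhi libraries lay far above the other 12. By RFP, the difference was log2 0.59 ± 0.12 in MHCIIlo (adjusted p = 0.00033, 1.5-fold) and 1.64 ± 0.12 in MHCIIhi cells (adjusted p = 1.2e-10, 3.13-fold), a change between gates of -1.06 ± 0.17 (adjusted p = 4e-05). MHCIIlo cells were below MHCIIhi cells, at log2 -1.79 ± 0.12 among RFP+ (adjusted p = 2.9e-11) and -0.74 ± 0.12 among RFP- cells (adjusted p = 1.3e-05).

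Serpinb9b, a paralogue of Serpinb9, separated the gates and not the RFP classes. It was at 0, 0.731, 0.312 and 0.663 CPM in RFP+ MHCIIlo cells, against 0.425, 0.424, 0.512 and 0.688 CPM in RFP- MHCIIlo cells. Levels in the MHCIIhi gate were, in RFP+ cells, 9.82, 9.86, 11.9 and 10.4 CPM, against 10.0, 10.8, 10.5 and 9.02 CPM in RFP- MHCIIhi cells. The RFP differences were log2 -0.25 ± 0.48 (adjusted p = 0.69) in MHCIIlo and 0.06 ± 0.19 (adjusted p = 0.82) in MHCIIhi cells. MHCIIlo cells were 23.8-fold below MHCIIhi cells among RFP+ (log2 -4.57 ± 0.30, adjusted p = 1.4e-11) and 19.2-fold below among RFP- cells (-4.26 ± 0.28, adjusted p = 4.8e-12). The gene overlaps an antisense gene, Gm36099, over 278 of its 3351 exon bases.

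Serpinb9e ran opposite to Serpinb9 by gate. It was at 5.19, 3.29, 3.32 and 3.15 CPM in RFP+ MHCIIlo cells, against 1.17, 2.21, 1.19 and 2.32 CPM in RFP- MHCIIlo cells. In the MHCIIhi gate RFP+ cells held 0.624, 0.350, 1.15 and 0.842 CPM, against 0.186, 0.129, 0.230 and 0.517 CPM in RFP- MHCIIhi cells. All MHCIIlo libraries lay above all MHCIIhi libraries, by log2 2.30 ± 0.38 among RFP+ (adjusted p = 1.7e-05) and 2.66 ± 0.45 among RFP- cells (adjusted p = 1.8e-05). The RFP difference was 1.10 ± 0.36 in MHCIIlo (adjusted p = 0.012) and 1.45 ± 0.48 in MHCIIhi cells (adjusted p = 0.017). Leaving out both RFP+ MHCIIlo replicates 1 and 4 ended the MHCIIlo call (0.92, adjusted p = 0.068). The MHCIIhi call was lost without RFP- MHCIIhi replicate 1 (1.29, adjusted p = 0.062) or 2 (1.25, adjusted p = 0.058), or RFP+ MHCIIhi replicate 3 (1.13, adjusted p = 0.094). Of its 50-base words, 28.4% also occur in other genes, chiefly Serpinb9f, Serpinb9d and Gm11397, so its reads may be shared with these.

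**Figure D3:**
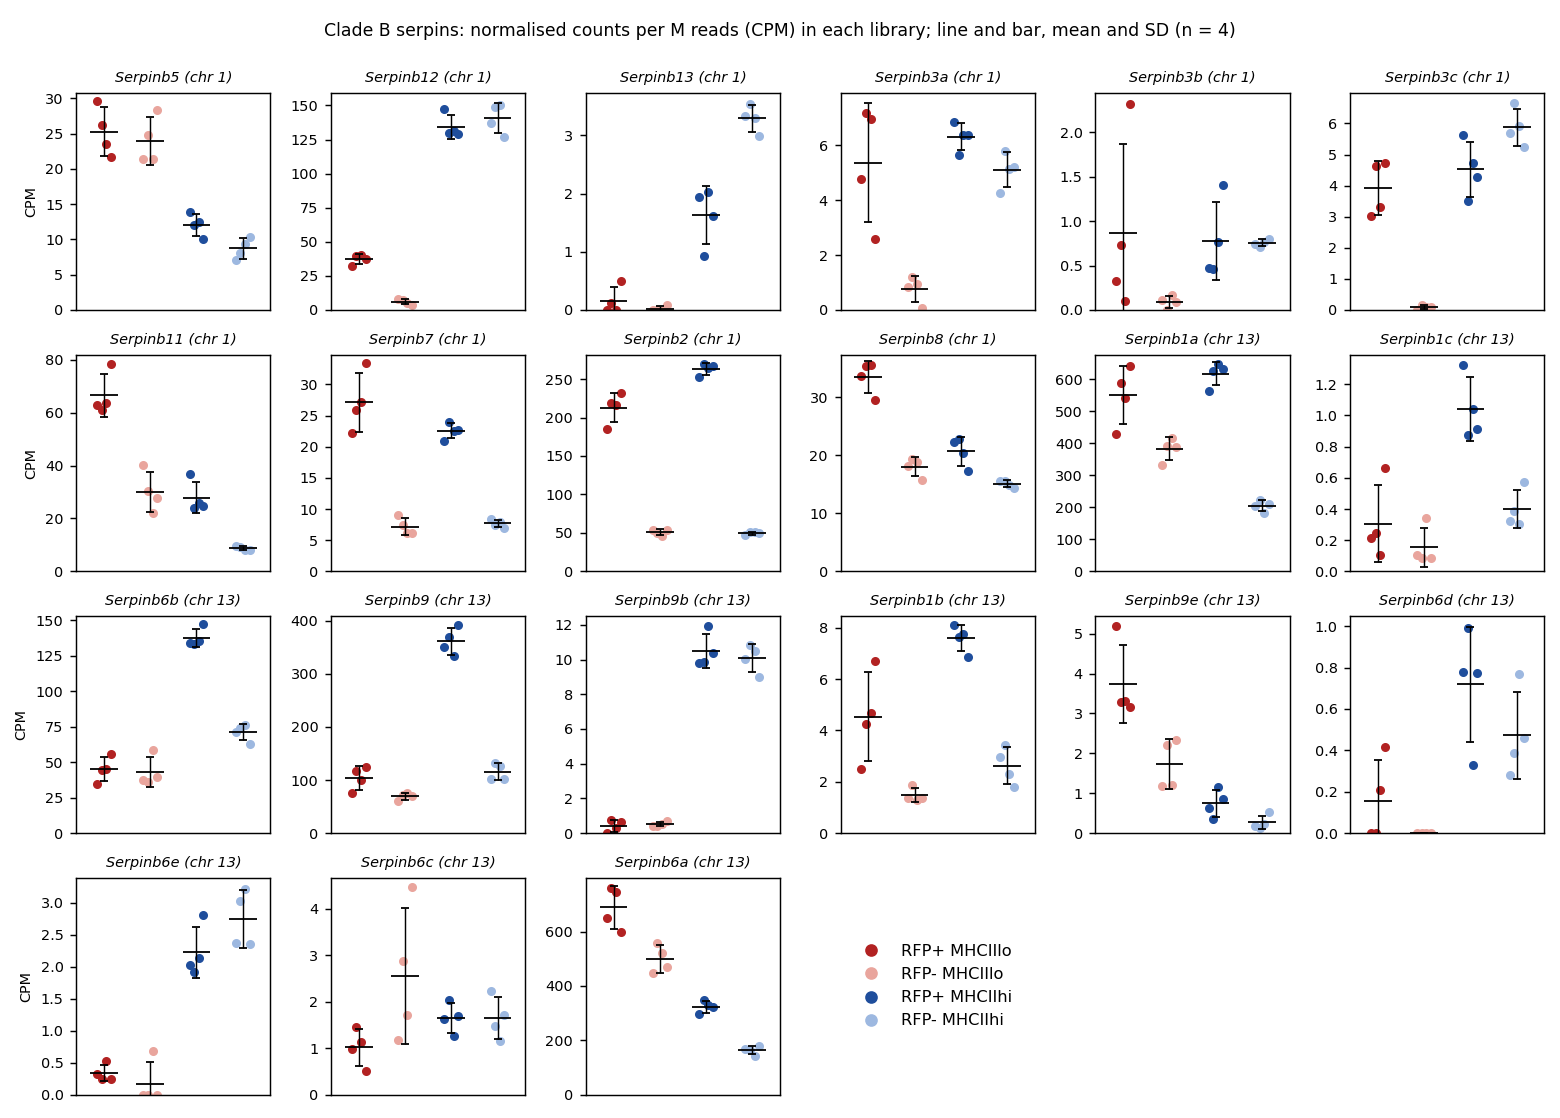
CPM of each of the 21 members in every library (points), with the mean and SD of 4 libraries (line and bar) and populations from left to right RFP+ MHCIIlo, RFP- MHCIIlo, RFP+ MHCIIhi and RFP- MHCIIhi. Serpinb2 and Serpinb7 follow RFP in both gates, Serpinb12 and Serpinb3c are lowest in RFP- MHCIIlo cells, and Serpinb9b and Serpinb6e follow the gate.

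Without RFP+ MHCIIlo replicate 4, 12 members were called higher and 1 lower with RFP in the MHCIIlo gate, against 14 and 1 with all libraries. The change between gates was then called for 4 with a larger and 6 with a smaller MHCIIlo value, against 6 and 5. The share of all genes called in the fit without that library is not given here. These counts are therefore not to be read against the shares of the full fit.

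Over the whole family the gate comparisons split the members. Among RFP+ cells 5 members were called higher and 10 lower in MHCIIlo than in MHCIIhi cells, where 27.5% of all genes were called higher and 28.1% lower, 55.6% in either direction. Among RFP- cells 6 were called higher and 11 lower, where 33.5% of all genes were called higher and 35.6% lower, 69.1% in either direction. The members' median was log2 -0.30 among RFP+ and -0.74 among RFP- cells, beside 0.01 and 0 over all genes. These 2 comparisons share no library. By call, 5 members were higher in MHCIIlo cells of both RFP classes (Serpinb5, Serpinb11, Serpinb8, Serpinb9e and Serpinb6a, with the Serpinb8 call among RFP- cells lost under several alternatives), and 8 were lower in both (Serpinb12, Serpinb13, Serpinb6b, Serpinb9, Serpinb9b, Serpinb1b, Serpinb6d and Serpinb6e). Members of 1 subfamily did not share a direction: Serpinb6a and Serpinb9e were higher in MHCIIlo cells where Serpinb6b and Serpinb9 were lower. Serpinb7 and Serpinb6c were called in neither gate comparison. For these joint counts too, the share of all genes with the same pair of calls is not given here.

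The RFP difference itself changed between gates for 11 of the 21 members, 6 with a larger value in MHCIIlo and 5 with a smaller one, where 17.5% and 16.6% of all genes were called in these directions, 34.1% in all. The 6 with the larger MHCIIlo value all lay on chromosome 1 (Serpinb12, Serpinb13, Serpinb3a, Serpinb3b, Serpinb3c and Serpinb8). The calls of Serpinb13, Serpinb3b and Serpinb8 were lost with single libraries left out. Of the 5 with the smaller value, 4 lay on chromosome 13 (Serpinb1a, Serpinb6b, Serpinb9 and Serpinb6a) and 1, Serpinb2, on chromosome 1. Neighbouring genes and paralogues are not independent of each other, and the split by chromosome was seen in these data and not tested.

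**Figure D4:**
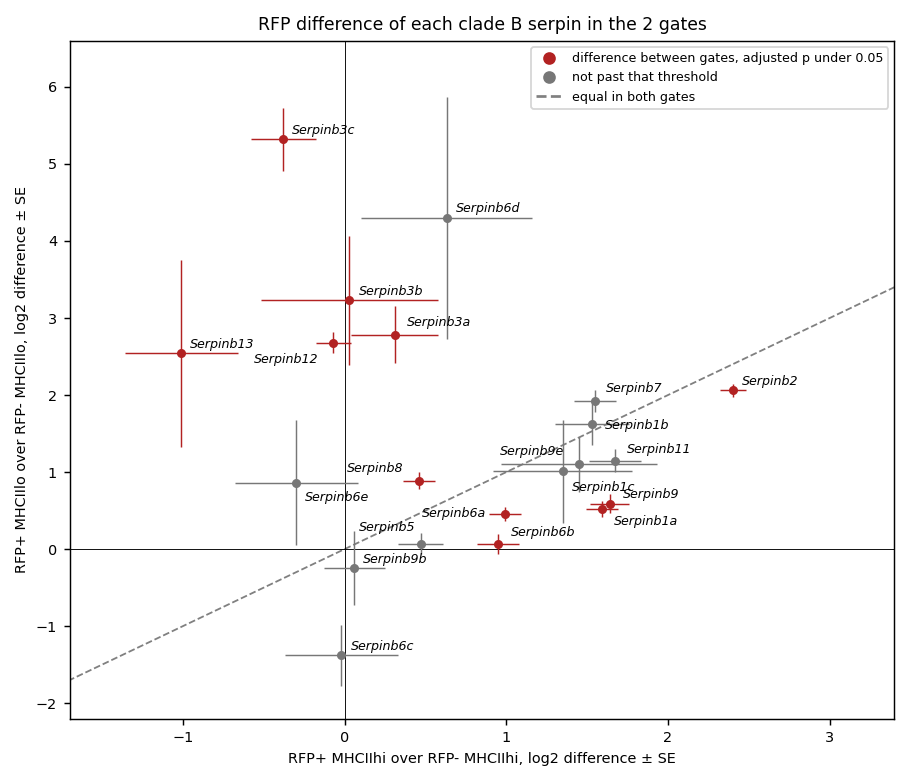
RFP difference of each member in MHCIIhi cells (x axis) and in MHCIIlo cells (y axis), log2 with SE bars, red where the 2 differed with an adjusted p under 0.05. Serpinb12 and Serpinb3a to Serpinb3c sit far above the dashed line of equal difference, with MHCIIlo values from 2.68 to 5.32, and Serpinb1a, Serpinb9, Serpinb6a and Serpinb6b sit below it. Serpinb13 and Serpinb6d also sit far above the line, but their MHCIIlo values rest on RFP- populations with 1 and 0 reads.

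Proteases listed as targets of clade B serpins, with the epidermal kallikreins, were set beside the inhibitors. Of 26 listed, 25 were tested, and 15 were called higher and 2 lower in RFP+ than in RFP- MHCIIlo cells (median log2 0.49), beside 28.9% and 22.7% of all genes. The kallikreins of cornifying epidermis had the largest differences among those called. Klk7 averaged 125 ± 22.4 CPM in RFP+ MHCIIlo cells, against 11.9 ± 4.90 CPM in RFP- MHCIIlo cells (SD, n = 4 each, log2 3.41, adjusted p = 1.4e-13), and Klk14, Klk5 and Klk8 were higher by 3.47, 3.39 and 3.09. In MHCIIhi cells 10 targets were called higher and 2 lower with RFP (median 0.06), beside 23.8% and 21.2% of all genes. Of these kallikreins Klk7 (0.55, adjusted p = 0.0045) and Klk8 (0.74, adjusted p = 0.0021) were called there. The RFP difference of the target list was called larger in MHCIIlo for 11 and smaller for 4 (median 0.60), beside 17.5% and 16.6% of all genes.

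Cathepsin L (Ctsl), which human SERPINB3 and SERPINB13 inhibit, was lower in RFP+ cells of both gates. It averaged 193 ± 24.2 CPM in RFP+ MHCIIlo cells, against 764 ± 67.6 CPM in RFP- MHCIIlo cells (log2 -1.98, adjusted p = 1e-08). In MHCIIhi cells it averaged 184 ± 59.7 CPM in RFP+ and 1104 ± 395 CPM in RFP- cells (-2.58, adjusted p = 2.3e-10). Ctsl is also a marker of cortical epithelium, and the other cortical markers fell with it, as given with the marker lists. Granzyme B (Gzmb), the target of Serpinb9, was at 6.66 ± 1.88 CPM in RFP+ MHCIIhi cells, against 13.5 ± 0.765 CPM in RFP- MHCIIhi cells (log2 -1.02, adjusted p = 0.0013), where Serpinb9 was higher with RFP. In the MHCIIlo gate Gzmb held 16 reads in RFP+ and 4 in RFP- cells. By gate, 5 targets were called higher and 11 lower in MHCIIlo than in MHCIIhi cells among RFP+ cells (median -0.22), beside 27.5% and 28.1% of all genes. Among RFP- cells 4 were called higher and 16 lower (median -1.16), beside 33.5% and 35.6% of all genes. Genes of leukocyte granules led these falls among RFP- cells. Gzmb held 4 reads in RFP- MHCIIlo cells, against 907 in RFP- MHCIIhi cells, and Cma1, mast cell chymase, held 3, against 427. Of the neutrophil targets, Elane had too few reads to be tested and Ctsg had 0 reads in RFP+ MHCIIlo cells.

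Other protease inhibitors of epithelia were called higher with RFP in 12 and lower in 6 of 21 tested in the MHCIIlo gate (median log2 0.51), beside 28.9% and 22.7% of all genes. In the MHCIIhi gate 15 were called higher and 1 lower (median 0.79), beside 23.8% and 21.2% of all genes. Spink5, the inhibitor of epidermal kallikreins, averaged 437 ± 65.8 CPM in RFP+ MHCIIhi cells, against 44.52 ± 10.96 CPM in RFP- MHCIIhi cells (log2 3.29, adjusted p = 1.5e-13). In the MHCIIlo gate Wfdc5, Wfdc21, Stfa3 and Stfa2, of the WAP and stefin families, had the largest values, 4.10, 3.75, 3.74 and 3.58. By gate, 9 were called higher and 7 lower in MHCIIlo than in MHCIIhi cells among RFP+ cells (median 0.31), beside 27.5% and 28.1% of all genes. Among RFP- cells 7 were called higher and 9 lower (median -0.45), beside 33.5% and 35.6% of all genes. The change of the RFP difference between gates was called for 7 with a larger and 10 with a smaller MHCIIlo value (median -0.42), beside 17.5% and 16.6% of all genes.

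The serpins of the other clades, most of them secreted, gave near-equal counts in both directions with RFP. Of 26 tested among 35, 7 were called higher and 8 lower in RFP+ MHCIIlo cells (median log2 0.02), beside 28.9% and 22.7% of all genes. In RFP+ MHCIIhi cells 8 were called higher and 6 lower (median 0.14), beside 23.8% and 21.2% of all genes. Serping1, the C1 inhibitor, averaged 13.9 ± 5.20 CPM in RFP+ MHCIIlo cells, against 120 ± 54.3 CPM in RFP- MHCIIlo cells (log2 -3.10, adjusted p = 1.9e-10), and was higher with RFP in the MHCIIhi gate (1.26, adjusted p = 7.4e-05). Serpina7, thyroxine-binding globulin, was higher with RFP in both gates, by 2.54 in MHCIIlo and 3.50 in MHCIIhi cells. MHCIIlo cells had 3 higher and 19 lower than MHCIIhi cells among RFP+ (median -1.29), beside 27.5% and 28.1% of all genes. Among RFP- cells 8 were higher and 12 lower (median -0.81), beside 33.5% and 35.6% of all genes. The change between gates was called larger in MHCIIlo for 2 and smaller for 11 (median -0.57), beside 17.5% and 16.6% of all genes.

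Protein-coding neighbours without a Serpinb symbol, lying between the outermost members or within 500 kb of them, numbered 15, of which 13 were tested. With RFP 3 were called higher and 2 lower in MHCIIlo (median log2 0.19), beside 28.9% and 22.7% of all genes. In MHCIIhi cells 4 were called higher and 3 lower (median 0.05), beside 23.8% and 21.2% of all genes. Bcl2, an inhibitor of apoptosis beside the chromosome 1 cluster, was lower in RFP+ MHCIIlo cells (log2 -1.43, adjusted p = 4.8e-13), as was Tubb2b, a tubulin gene beside the chromosome 13 cluster (-1.16, adjusted p = 9.8e-07). MHCIIlo cells had 5 higher and 2 lower than MHCIIhi cells among RFP+ (median 0.13), beside 27.5% and 28.1% of all genes. Among RFP- cells 5 were higher and 1 lower (median 0.13), beside 33.5% and 35.6% of all genes. The change between gates was called larger in MHCIIlo for 1 and smaller for 3 (median 0.05), beside 17.5% and 16.6% of all genes. The neighbours' medians with RFP thus lay nearer to those of all genes than the serpins' medians did.

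Markers of several cell types moved along with the serpins, and their part in the serpin differences was not tested. The marker counts in this and the next paragraphs stand beside the shares of all genes called. With RFP these were 28.9% higher and 22.7% lower in MHCIIlo, and 23.8% and 21.2% in MHCIIhi cells. For MHCIIlo against MHCIIhi among RFP+ cells they were 27.5% and 28.1%. All 10 keratinocyte markers (among them Krt1, Krt10 and Ivl) were called higher in RFP+ MHCIIlo cells, and 8 higher and 1 lower in RFP+ MHCIIhi cells. They summed to 1560 to 2340 CPM in RFP+ MHCIIlo libraries, against 236 to 310 in RFP- MHCIIlo libraries, and to 599 to 798 in RFP+ MHCIIhi libraries, against 206 to 236 in RFP- MHCIIhi libraries. This sum was higher with RFP in both gates, as Serpinb2 and Serpinb7 were. Among RFP+ cells 7 of the 10 markers were also called higher in MHCIIlo than in MHCIIhi cells and 0 lower. Of the 21 serpins, 5 were called higher there (Serpinb5, Serpinb11, Serpinb8, Serpinb9e and Serpinb6a). Another 10 were called lower, Serpinb2 and Serpinb12 among them, and 6 were not called, Serpinb7 among them. Tuft cell markers summed to 2110 to 3100, 977 to 1620, 347 to 458 and 79.3 to 96.8 CPM in RFP+ MHCIIlo, RFP- MHCIIlo, RFP+ MHCIIhi and RFP- MHCIIhi libraries, with all 6 called higher in RFP+ cells of both gates. Microfold cell markers summed to 2570 to 2850, 1580 to 1730, 1100 to 1200 and 573 to 663 CPM in that order, with 5 and 4 of 5 called higher with RFP in MHCIIlo and MHCIIhi cells.

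Basal epithelial markers summed to 831 to 896 CPM in RFP+ MHCIIlo libraries, against 2250 to 2920 in RFP- MHCIIlo libraries, with 4 of 5 called lower. They summed to 730 to 800 in RFP+ MHCIIhi libraries, against 650 to 797 in RFP- MHCIIhi libraries. The population low in Serpinb12 and the Serpinb3 genes was thus the one highest in basal markers. Mature medullary markers, with Aire and MHC class II genes, summed to 2830 to 5490 CPM in RFP+ MHCIIlo libraries, against 4940 to 7120 in RFP- MHCIIlo libraries, and to 19400 to 20400 in RFP+ MHCIIhi libraries, against 16600 to 18300 in RFP- MHCIIhi libraries. Cortical epithelial markers, which include Ctsl, summed to 212 to 269 CPM in RFP+ MHCIIlo libraries, against 765 to 928 in RFP- MHCIIlo libraries, and to 278 to 499 in RFP+ MHCIIhi libraries, against 1320 to 2610 in RFP- MHCIIhi libraries, with all 4 called lower with RFP in each gate.

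Markers of leukocytes, which also make Serpinb1a, Serpinb6 and Serpinb9, were present after the CD45-negative sort. T lineage and thymocyte markers summed to 48.5 to 110 CPM in RFP+ MHCIIlo libraries, against 33.9 to 56.3 in RFP- MHCIIlo libraries, and to 74.5 to 120 in RFP+ MHCIIhi libraries, against 263 to 569 in RFP- MHCIIhi libraries, with all 6 called lower with RFP in the MHCIIhi gate. Serpinb1a, Serpinb6a and Serpinb9 were higher with RFP there. Myeloid and granulocyte markers summed to 230 to 364 CPM in RFP+ MHCIIlo libraries, against 112 to 149 in RFP- MHCIIlo libraries, and to 809 to 868 in RFP+ MHCIIhi libraries, against 785 to 847 in RFP- MHCIIhi libraries. B lineage markers summed to at most 40.7 CPM in any library. Mast cell markers summed to 147 to 198, 65.3 to 77.0, 87.9 to 97.1 and 85.7 to 93.3 CPM in RFP+ MHCIIlo, RFP- MHCIIlo, RFP+ MHCIIhi and RFP- MHCIIhi libraries. Kit made most of these sums, at means of 166, 71.2, 76.0 and 71.7 CPM in that order. Of the same list, Cma1 was at 0.337, 0.0692, 5.19 and 6.23 CPM and Cpa3 at 0.617, 0.133, 1.03 and 1.23 CPM, both highest in the MHCIIhi gate. The sums thus followed Kit. Mesenchymal markers summed to 39.8 to 119 CPM in RFP+ MHCIIlo libraries, against 333 to 776 in RFP- MHCIIlo libraries, and endothelial markers to 3.46 to 5.64, against 28.2 to 50.8. In MHCIIhi cells mesenchymal markers summed to 107 to 119 CPM with RFP, against 128 to 136 without, and endothelial ones to 11.8 to 13.9, against 16.5 to 20.0. Erythroid markers were at most 13.2 CPM in sum. No marker list had a gene with 0 reads in a population.

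The 5 members below the read limit held 78 reads over all 16 libraries for Serpinb3d, 73 each for Serpinb9c and Serpinb9d, 56 for Serpinb9f and 15 for Serpinb9g. Serpinb3d was found chiefly in the MHCIIhi gate, at 0.117 to 0.878 CPM in RFP+ MHCIIhi and 0.581 to 0.689 CPM in RFP- MHCIIhi cells. Of the 50-base words of Serpinb9f, 78.7% occur in other genes, and of Serpinb9g 54.8%, so a count that drops shared reads would understate both. Serpinb10 was left out by the rule because the annotation used for symbols lists it as a polymorphic pseudogene. It was at 0.648, 0.488, 0.519 and 4.56 CPM in RFP+ MHCIIlo cells, against 1.49, 1.19, 1.02 and 1.81 CPM in RFP- MHCIIlo cells. It was at 2.65, 2.22, 1.37 and 2.53 CPM in RFP+ MHCIIhi cells, against 4.31, 5.49, 6.52 and 4.02 CPM in RFP- MHCIIhi cells. RFP+ MHCIIlo replicate 4 held the highest level of its population for Serpinb10, as for Serpinb3b, Serpinb3c, Serpinb13, Serpinb11, Serpinb7 and Serpinb2. It did so too for Serpinb1a, Serpinb1b, Serpinb1c, Serpinb6b, Serpinb6d and Serpinb9, but not for the other members described with their values.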

How the data were processed

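Poly(A) RNA from sorted cells was amplified with NuGen Ovation V2 before library preparation (Nextera XT), per the labels' protocols. The authors deposited raw read counts per Ensembl gene for each of 16 libraries, 7.93 to 19.46 M reads each. STAR, DESeq2 and GRCm38 are named in the submitters' processing notes, with no annotation release, counter or strand setting given in these sources. Amplified reads are not independent molecules, so counting intervals cover counting error only. Symbols, types, positions and exon lengths came from GENCODE M21, which matched 42462 of 43432 IDs, and the 970 without a match held 0.11% of reads.

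One edgeR 4.0.16 quasi-likelihood fit (R 4.3.3, TMM, filterByExpr with a minimum count of 10) covered all 16 libraries with a mean per group and 19617 genes, with Benjamini-Hochberg adjustment over all of them, and was tested on simulated data. Fold changes are fitted values. Members with 10 or more reads in 4 or more libraries are named with values, per library where an absolute log2 difference over 1 was called. Of other lists, up to 4 called genes with the largest differences are named, beside targets of named members. The members and lists were chosen with earlier results of these data known. Sums of a list include its untested genes. Replicates of a group differed by more than sampling noise (chi-square per degree of freedom 3.18 to 36.8 over 24 pairs, the 3 highest with RFP+ MHCIIlo replicate 4), so none was merged. Shared reads were gauged by the 50-base words a gene's transcripts share with other genes' transcripts. Alternatives were DESeq2 size factors (RLE), no filter on low counts, DESeq2 1.42.0, limma-voom 3.58.1, a replicate block, fits of only the 2 groups compared, each library left out, RFP+ MHCIIlo replicates 1 and 4 left out, and mitochondrial and ribosomal RNA genes left out.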

Additional observations from a re-analysis of the deposited data

Results flagged for a closer look

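In 9 of 84 groups of 4 libraries (21 members in 4 populations), 1 library lay far from the other three by Dixon's criterion, where chance gives about 1 in 20 groups. These were Serpinb12 in RFP+ MHCIIhi replicate 1 (147 CPM, others 129 to 131), Serpinb11 in RFP+ MHCIIhi replicate 1 (36.7, others 24.1 to 25.9) and in RFP+ MHCIIlo replicate 4 (78.4, others 61.1 to 63.6), and Serpinb6b in RFP+ MHCIIhi replicate 4 (147, others 134 to 136) and in RFP- MHCIIlo replicate 3 (58.4, others 36.0 to 39.4). Serpinb9e stood apart in RFP+ MHCIIlo replicate 1 (5.19 CPM, others 3.15 to 3.32). The remaining cases rest on 1 to 8 reads, Serpinb6e (0.682 CPM) and Serpinb1c (0.341 CPM) in RFP- MHCIIlo replicate 3 and Serpinb13 (0.0860 CPM) in RFP- MHCIIlo replicate 4. RFP- MHCIIlo replicate 3 accounts for 3 of the 9.

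For 11 members the RFP difference in MHCIIlo cells differed from that in MHCIIhi cells in edgeR's quasi-likelihood test of the difference itself. On the log2 scale the change was 2.75 for Serpinb12, 3.56 for Serpinb13, 2.47 for Serpinb3a, 3.20 for Serpinb3b, 5.70 for Serpinb3c and 0.43 for Serpinb8. It was -0.34 for Serpinb2, -1.06 for Serpinb1a, -0.88 for Serpinb6b, -1.06 for Serpinb9 and -0.52 for Serpinb6a. Those of Serpinb13, Serpinb3b and Serpinb8 lost their call under single libraries left out, as given with their values, and that of Serpinb13 rests on a population with 1 read, is no measure of size and was 1.56 without RFP+ MHCIIlo replicate 4.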

How the results depend on the processing

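Over 24 alternative settings (23 for the change between gates), the number of members called stayed within 1.5 times the reported one. It ran from 11 to 16 for RFP+ against RFP- MHCIIlo cells (15 reported), 10 to 13 for RFP+ against RFP- MHCIIhi cells (13), 14 to 16 for MHCIIlo against MHCIIhi among RFP+ (15), 15 to 18 among RFP- cells (17) and 9 to 13 for the change between gates (11). With a replicate block these were 15, 13, 15, 17 and 12, Serpinb11 being added to the last (-0.50, adjusted p = 0.035). Correlations of same-numbered libraries were weak (-0.019 to 0.129, 4 of 24 over 0.1), and the fit without the block is reported. Yet 35 of 48 comparisons correlated best with their own number, each among 4 candidate libraries. That is a hint in the data of a shared replicate effect, which the reported fit leaves out. Of 71 called differences, 57 kept their call throughout, 14 lost it at least once and 0 changed sign. Of 34 uncalled ones, 10 were called at least once. Of 2478 values, 2379 kept direction and call, 48 lost and 29 gained a call, and 22 changed sign, all uncalled.

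For RFP in MHCIIlo cells the sign changed with single libraries left out for Serpinb9b (-0.62 to 0.14), Serpinb5 (-0.02 to 0.16) and Serpinb6b (-0.05 to 0.26). For RFP in MHCIIhi cells it changed for Serpinb9b with single libraries left out (-0.01 to 0.09), for Serpinb6c with no filter (0.01) and with single libraries left out (-0.15 to 0.18), and for Serpinb3b with limma-voom (-0.10), with the replicate block (-0.09) and with single libraries left out (-0.39 to 0.22). Between gates among RFP+ cells it changed for Serpinb3a without RFP+ MHCIIlo replicates 1 and 4 (0.16), and for Serpinb3b with limma-voom (-0.26), with single libraries left out (-1.04 to 0.66) and without RFP+ MHCIIlo replicates 1 and 4 (-0.95). Among RFP- cells it changed for Serpinb2 with RLE factors (-0.02) and DESeq2 (-0.03). The change between gates turned sign for Serpinb9b (-0.68 to 0.07), Serpinb1c (-1.12 to 0.38) and Serpinb1b (-0.17 to 0.30) with single libraries left out. The cause was not tested. Depth limits members at or below about 1 CPM, among them Serpinb13, Serpinb3b, Serpinb1c, Serpinb6d, Serpinb6e and Serpinb9b in MHCIIlo cells and Serpinb3a and Serpinb3c in RFP- MHCIIlo cells.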
